A study of Mus musculus with 9 samples.

Results

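The genes described here are the feedback inhibitors Socs1, Socs2, Socs3 and Cish, the kinase gene Pim1, and the interleukin-6 pathway genes Il6, Il6ra and Il6st. They were found by gene symbol: all 8 are in the deposited files, out of 22173 genes in all. They were measured by RNA sequencing in primary neutrophils from the bone marrow of wild-type mice, held for 2 days in gelatin methacryloyl (GelMA) hydrogel, a crosslinked gelatin, in RPMI medium with fetal bovine serum. Gel stiffness was low at 1.5 kPa, middle at 2.6 kPa or high at 5.7 kPa, and the low gel is the control of the series. Each gel has 3 libraries, numbered replicates 1 to 3, which makes 9 in all. The sources used here do not give the strain, sex and age of the mice, the purity of the cells or what a replicate number stands for, so p-values measure how far these libraries spread, and that spread may be technical.

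Interleukin-6 is a cytokine that binds the receptor chain encoded by Il6ra. The complex then recruits gp130, the shared signalling chain encoded by Il6st, whose attached JAK kinases phosphorylate STAT factors, mainly STAT3. STAT factors switch on genes of the SOCS family, whose proteins block the receptors or JAK kinases in turn: SOCS3 binds gp130 and the G-CSF receptor, SOCS1 restrains interferon signalling, and CISH and SOCS2 are induced by STAT5 and restrain cytokine and growth hormone receptors. PIM1 is a serine/threonine kinase induced by STAT factors that favours survival. In neutrophils, Socs3 is known as the brake on G-CSF signalling.

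In the fit with the replicate number as a block, Socs3, Cish and Pim1 mRNA rose in high gels, and Socs3 had the lowest adjusted p. The primary model, without the block, called none of the 8 genes. Levels are given as CPM, counts scaled to the TMM-normalised library size. "Rose" and "fell" mean a Benjamini-Hochberg adjusted p under 0.05 over all genes tested, in edgeR's quasi-likelihood test with the replicate number as a block. That primary edgeR fit, without the block, called 0 of the 8 genes in any comparison. It left 4 members at an unadjusted p under 0.05 for high against low. It called 0.091% of the 12094 genes tested for high against low and 0% for the other pairs of gels, with 934, 318 and 179 genes at an unadjusted p under 0.05 for high against low, middle against low and high against middle. DESeq2 without the block called 1 member, Socs3 in high against low (adjusted p = 0.0477), beside 2.76% of its tested genes. With the block, 3 of the 8 members rose in high against low and 0 fell, where 15.5% of all genes tested passed, 6.72% higher and 8.73% lower. The median log2 fold change of the 8 was 0.36, beside 0 over all tested genes.

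Libraries of replicate 1 stood apart from the others in every gel. Principal component 1, with 68.1% of the variance, separated them. They also held the fewest counts, 13172879, 13214759 and 14093074 in the low, middle and high gels, beside 14693998 to 19486546 in the other libraries. The part of depth in this split was not tested. The 12 neutrophil markers had a summed level of 2900 to 3490 CPM in replicate 1 and 12300 to 22300 CPM in replicates 2 and 3. By gel, that sum was 3490, 12500 and 12300 CPM in high replicates 1 to 3 and 2900, 22300 and 19200 CPM in low replicates 1 to 3, so that in replicates 2 and 3 it was lower in high gels without overlap. With the replicate number as a block, 0 of the 12 rose and 4 fell in high against low. S100a8, S100a9 and Ngp held much of the neutrophil sum, with means of 3340, 3110 and 2570 CPM. In that fit they were at -0.12, -0.29 and -1.22, none past the threshold, and Mmp8 and Mmp9 were at 0.21 and 0.13. The 12 macrophage markers had a summed level of 5230 to 7700 CPM in high gels and of 8560 to 8820 CPM in low gels, with no overlap. In replicate 1 the macrophage sum was 7210 to 8560 CPM, above the neutrophil sum in every gel. In replicates 2 and 3 it was 5230 to 8820 CPM, below the neutrophil sum in every library. Gpnmb held much of the macrophage sum, with a mean of 3120 CPM. In the same fit 6 of the 12 fell, among them Gpnmb (-1.04, adjusted p = 0.0116) and Mertk (-0.94, adjusted p = 8.48e-04), and 2 rose, Csf1r (0.59, adjusted p = 0.00322) and Adgre1 (0.38, adjusted p = 0.0206). The summed level of each of 6 lists for other cell types, such as T cells (10.3 to 44.3 CPM), B cells (31.6 to 206 CPM) and erythroid cells and megakaryocytes (325 to 764 CPM), stayed at or below 764 CPM. No marker found in the files was at 0 in every library. In bulk RNA, fewer cells of a type and less RNA per cell cannot be told apart, and the part of cell composition in the results below was not tested.

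**Figure D1:**
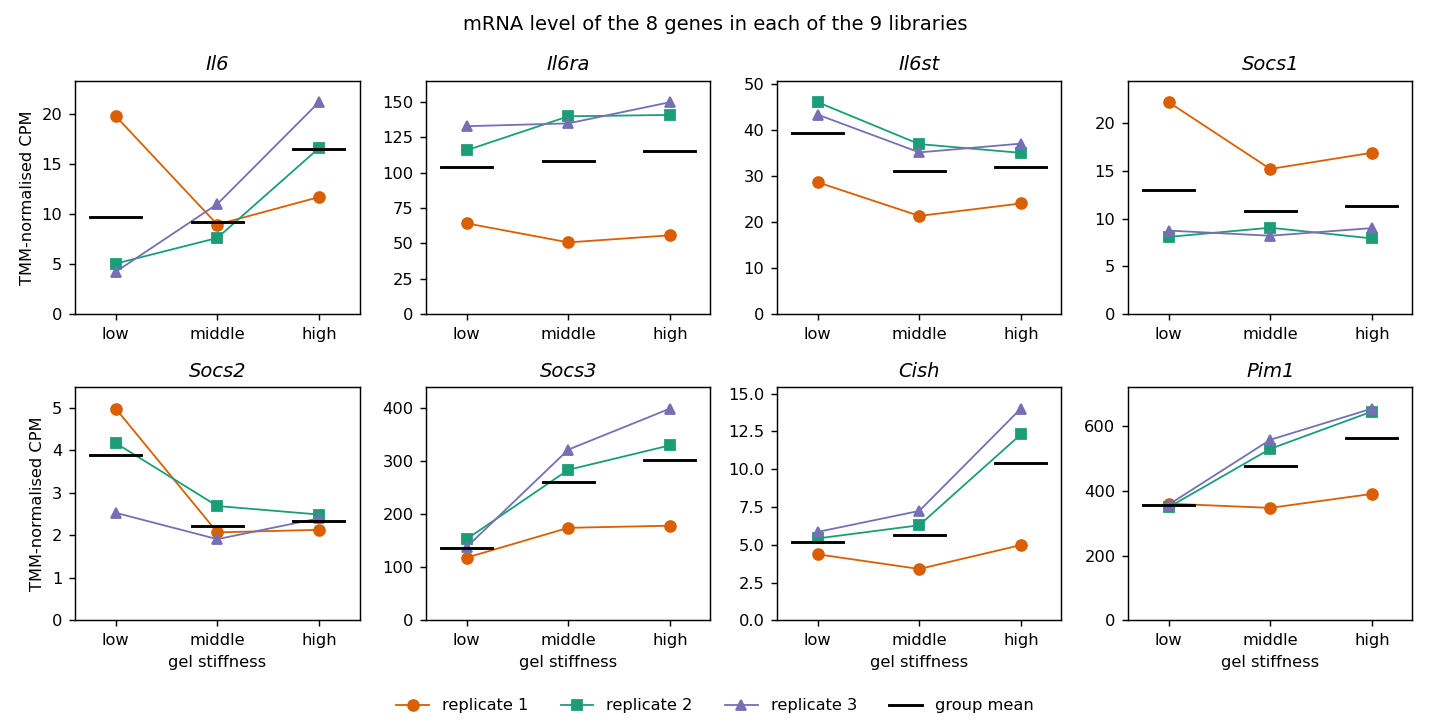
Level of each gene (TMM-normalised CPM, linear axis from 0) in the low, middle and high gels. Points are single libraries, lines join libraries of the same replicate number and black bars are group means (n = 3): in replicates 2 and 3, Socs3, Cish and Pim1 are higher in each stiffer gel, while in replicate 1 Cish and Pim1 are lowest in the middle gel.

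Socs3 is the gene of the inhibitor that acts on gp130. It had 118, 153 and 138 CPM in low replicates 1 to 3, 174, 283 and 321 CPM in middle, and 178, 329 and 398 CPM in high. The means were 301 ± 113 CPM in high gels, 260 ± 76.2 CPM in middle gels and 137 ± 17.6 CPM in low gels (SD, n = 3 each). All 3 high libraries and all 3 middle libraries lay above all 3 low libraries, as did 5.9% of all tested genes for high and 3.56% for middle. Socs3 rose in high against low by 1.07 ± 0.15 on the log2 scale (fold change ± standard error, n = 3 per group, adjusted p = 0.00159), a 2.1-fold higher level, with 1.14 ± 0.33 in the fit without the block (adjusted p = 0.344). It also rose in middle against low, by 0.88 ± 0.15 (adjusted p = 0.0182), a comparison in which 1.84% of all genes tested passed and 0.81% rose. The fit without the block gave 0.93 ± 0.33 (adjusted p = 1). High and middle gels were closer, with 0 of the 8 members called beside 0.0165% of tested genes, and Socs3 at 0.19 ± 0.14 (adjusted p = 0.702, 95% interval -0.13 to 0.51). Within replicates 1, 2 and 3, high exceeded low by 0.59, 1.10 and 1.52 on the log2 scale. The call for high against low held without any 1 of the 9 libraries (adjusted p of 5.84e-06 to 0.0157 with the block). The call for middle against low was lost without low replicate 2, low replicate 3 or any of the middle libraries, with an adjusted p of up to 0.119.

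Cish, which encodes the SOCS family protein best known as a STAT5 target, was low in count, and its mean was 10.5 ± 4.82 CPM in high gels and 5.21 ± 0.759 CPM in low gels (SD, n = 3 each). It had 4.37, 5.42 and 5.85 CPM in low replicates 1 to 3, 3.40, 6.29 and 7.24 CPM in middle, and 4.98, 12.3 and 14.0 CPM in high. High replicates 2 and 3 were above every other library, while high replicate 1 lay within the range of the low gels. Cish rose in high against low by 0.93 ± 0.21 (adjusted p = 0.0127), with 1.00 ± 0.42 without the block (adjusted p = 0.614). Middle gels differed from low gels by 0.08 ± 0.22 (adjusted p = 0.925, 95% interval -0.40 to 0.55). High against middle gave 0.86 ± 0.21 (adjusted p = 0.189). By these estimates the larger step was to the high gel, but that step did not pass the test over all genes. No test compared the steps. The counts behind these values are 46 to 218 per library.

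Pim1, the most abundant of the 8 genes per length, had 360, 349 and 357 CPM in low replicates 1 to 3, 347, 529 and 557 CPM in middle, and 390, 644 and 653 CPM in high. The low libraries were nearly equal, and replicate 1 stayed near that level in every gel. All high libraries lay above all low ones, as in 5.9% of tested genes, but high replicate 1 only narrowly (390 against 360 CPM). Pim1 rose in high against low by 0.62 ± 0.15 (adjusted p = 0.0205), with 0.66 ± 0.25 without the block (adjusted p = 0.54). Middle against low gave 0.38 ± 0.15 (adjusted p = 0.263) and high against middle 0.23 ± 0.15 (adjusted p = 0.63). For Cish and Pim1 the call for high against low was lost without low replicate 2, low replicate 3, high replicate 2 or high replicate 3, with an adjusted p of up to 0.0966 for Cish and 0.106 for Pim1. Without low replicate 1, Pim1 also passed for middle against low (0.63, adjusted p = 7.83e-04) and Cish for high against middle (0.87, adjusted p = 0.0139), as did Cish for high against middle without high replicate 1 (1.04, adjusted p = 0.0221).

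**Figure D2:**
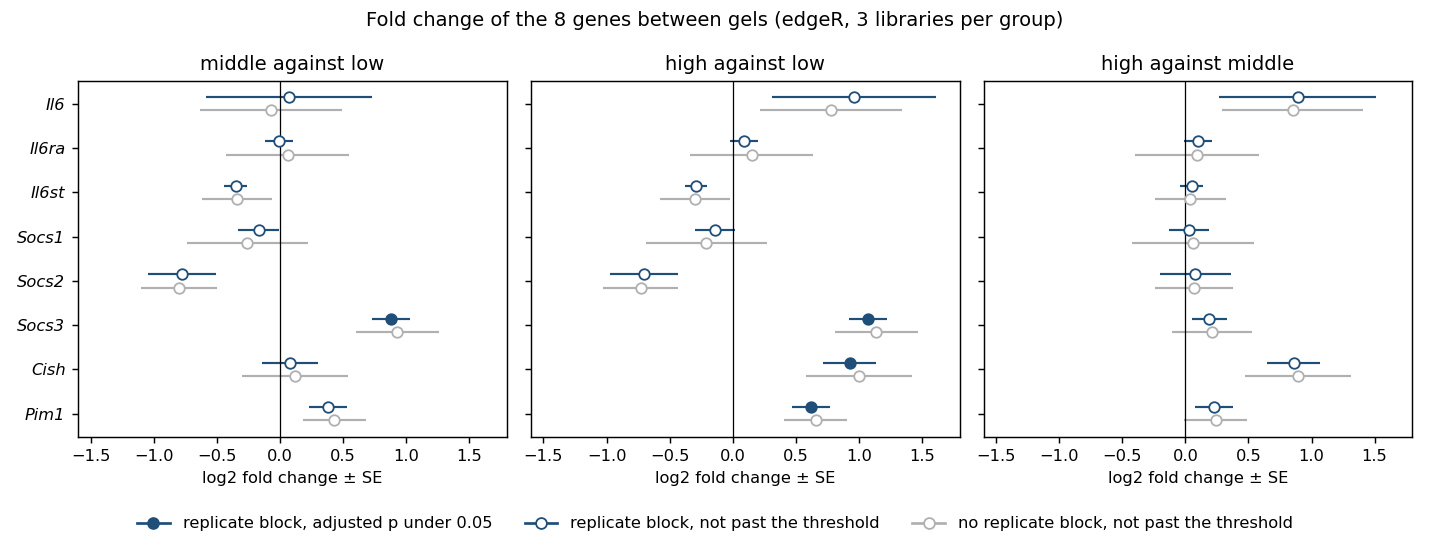
Log2 fold change ± standard error (x axis) of each gene (rows) in the 3 comparisons, 3 libraries per group. Dark points come from the edgeR fit with the replicate number as a block, filled where the adjusted p is under 0.05, and grey points from the fit without it: filled points are Socs3, Cish and Pim1 for high against low and Socs3 for middle against low.

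Il6, the cytokine gene, went in opposite directions from the low to the stiffer gels in replicate 1 and in the other replicates. It had 19.8, 5.04 and 4.22 CPM in low replicates 1 to 3, 8.95, 7.61 and 11 CPM in middle, and 11.7, 16.6 and 21.2 CPM in high. Low replicate 1 was the second highest of the 9 libraries, and low replicates 2 and 3 were the lowest. High against low was 0.96 ± 0.65 with the block (adjusted p = 0.389, 95% interval -0.70 to 2.62) and 0.78 ± 0.56 without it (adjusted p = 0.893), so that no difference passed over all 9 libraries. Within replicates 1, 2 and 3 the difference was -0.76, 1.72 and 2.33. The test of the difference itself, an interaction term in which replicate 1 has 1 library per gel, gave -2.78 ± 0.34 for replicate 1 relative to replicates 2 and 3 (adjusted p = 5.16e-04), where 8.36% of all tested genes passed. With 1 library per gel, replicate 1 adds nothing to the spread in that fit, which comes from replicates 2 and 3. The p-value of the interaction therefore does not measure how replicate 1 libraries vary. High exceeded middle in each replicate number, by 0.38, 1.13 and 0.95, and the groups did not overlap, with 2.54% of tested genes likewise higher in every high library. That comparison gave 0.89 ± 0.62 (adjusted p = 0.703). Without low replicate 1 the fit with the block called Il6 for high against low (1.92, adjusted p = 4.36e-05), middle against low (1.08, adjusted p = 0.0114) and high against middle (0.85, adjusted p = 0.0223). Each of these calls was made in 1 of the 9 fits with the block that left out a library. Low replicate 1 is the library that differs from the other low libraries, so these p-values are no separate support.

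For Socs3 and Pim1 the difference between high and low gels was also smaller in replicate 1. The interaction was -0.73 ± 0.18 for Socs3 (adjusted p = 0.0271) and -0.76 ± 0.12 for Pim1 (adjusted p = 0.00233), while Cish gave -1.04 ± 0.35 (adjusted p = 0.0907). For middle minus low it passed for Il6 (-2.13 ± 0.36, adjusted p = 0.00872) and Pim1 (-0.67 ± 0.12, adjusted p = 0.0113), where 2.6% of tested genes did. Replicates 2 and 3 alone have 2 libraries per gel and leave out the replicate number in which Il6 went the other way from the low gel. Their p-values are therefore no separate support. In these libraries, without a block, 5 of the 8 genes passed for high against low, beside 26.3% of the genes tested in them. They were Il6 (2.02 ± 0.21, 4.06-fold, adjusted p = 2.35e-05), Socs3 (1.31 ± 0.10), Cish (1.22 ± 0.17), Pim1 (0.88 ± 0.07) and, lower in high gels, Il6st (-0.31 ± 0.09, adjusted p = 0.0234). In the same libraries Il6, Socs3 and Pim1 passed for middle against low (0.98, 1.05 and 0.62, beside 6.42% of tested genes), and Il6, Cish and Pim1 for high against middle (1.04, 0.97 and 0.26, beside 6.88%). These are the libraries in which the neutrophil markers summed to 12300 to 12500 CPM in high gels and 19200 to 22300 CPM in low gels, and the part of that difference in these results was not tested.

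**Figure D3:**
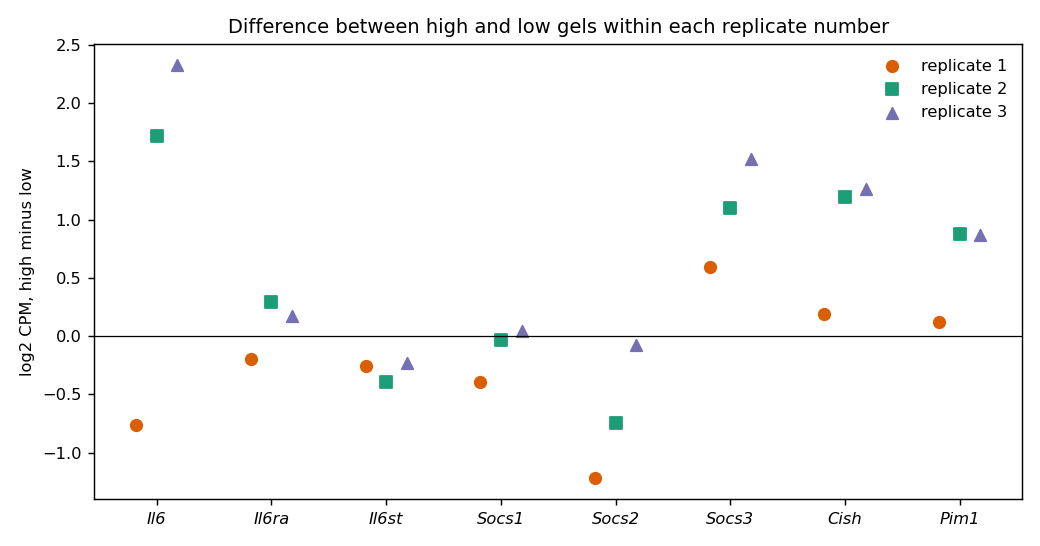
Difference in log2 CPM between the high and the low gel (y axis) for each gene, with 1 point per replicate number. Il6 lies at -0.76 in replicate 1 and at 1.72 and 2.33 in replicates 2 and 3, and Pim1 at 0.12 against 0.88 and 0.87.

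Among the receptor genes, Il6ra differed mainly by replicate number, and Il6st was lower both in replicate 1 and, without passing the test, in the stiffer gels. Il6ra, the ligand-binding chain, had 64.2, 116 and 133 CPM in low replicates 1 to 3, 50.7, 140 and 135 CPM in middle, and 55.7, 141 and 150 CPM in high. Every replicate 1 library was below every other library. High against low was 0.09 ± 0.11 with the block (adjusted p = 0.639, 95% interval -0.15 to 0.32). Il6st, the gp130 chain, had 28.6, 46.0 and 43.3 CPM in low, 21.3, 36.9 and 35.1 CPM in middle, and 24.0, 35.0 and 37.0 CPM in high. In each replicate number both stiffer gels were below the low gel. The differences were -0.29 ± 0.09 for high against low (adjusted p = 0.0519, 95% interval -0.50 to -0.09) and -0.35 ± 0.09 for middle against low (adjusted p = 0.0932), neither past the threshold.

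The other SOCS genes among the members did not pass in any stiffness comparison over the 9 libraries. Socs1, the brake on interferon signalling, had 22.2, 8.08 and 8.74 CPM in low, 15.2, 9.04 and 8.20 CPM in middle, and 16.9, 7.92 and 9 CPM in high. Its 6 libraries of replicates 2 and 3 were within 7.92 and 9.04 CPM, and in them high against low was 0.01 ± 0.16 (adjusted p = 0.986, 95% interval -0.35 to 0.36). Socs2 had 4.98, 4.17 and 2.53 CPM in low, 2.07, 2.69 and 1.91 CPM in middle, and 2.13, 2.49 and 2.4 CPM in high. All high libraries lay just below the lowest low library, as in 6.76% of tested genes. High against low was -0.70 ± 0.27 (adjusted p = 0.102) and middle against low -0.78 ± 0.27 (adjusted p = 0.203). Socs2 rests on 28 to 77 counts per library, the fewest of the 8 genes.

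Across gels, replicate 1 differed from replicates 2 and 3 in 6 of the 8 genes, 1 higher and 5 lower, where 65.4% of all tested genes differed, 32.9% higher and 32.5% lower. The gel was a further term of this fit. Lower in replicate 1 were Il6ra (-1.25 ± 0.10, adjusted p = 1.01e-06), Cish (-0.93 ± 0.19), Socs3 (-0.70 ± 0.13), Il6st (-0.66 ± 0.08) and Pim1 (-0.44 ± 0.13). Socs1 was higher, at 1.08 ± 0.13 (adjusted p = 2.33e-05), with 18.1 ± 3.65 CPM in replicate 1 (mean ± SD, n = 3) and 8.50 ± 0.491 CPM in replicates 2 and 3 (n = 6). Il6 (0.51 ± 0.56) and Socs2 (0.14 ± 0.24) did not pass. Between replicates 3 and 2, none of the 8 genes passed in edgeR (adjusted p = 1 for each, lowest unadjusted p = 0.143), nor did any other gene (0% of those tested). Of the 12 neutrophil markers, 11 were lower in replicate 1, with a median of -2.4, and the share of the replicate 1 difference that this accounts for was not tested.

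Levels were compared between genes as CPM per kilobase of exonic gene size. Pim1 had a mean of 171 ± 48.0 per kilobase (SD over the 9 libraries), Socs3 85.1 ± 37.0 and Il6ra 32.4 ± 12.0, each above the next in 9 of 9 libraries. Il6 (10.3 ± 5.41), Socs1 (8.74 ± 3.86) and Il6st (5.97 ± 1.44) were not separated: Il6 was above Socs1 in 4 libraries and Socs1 above Il6st in 5. Cish (1.65 ± 0.849) and Socs2 (0.215 ± 0.0798) came last in every library. Among the 4 SOCS family genes Socs3 was therefore the highest everywhere, and the ligand-binding receptor chain stood above the shared chain.

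**Figure D4:**
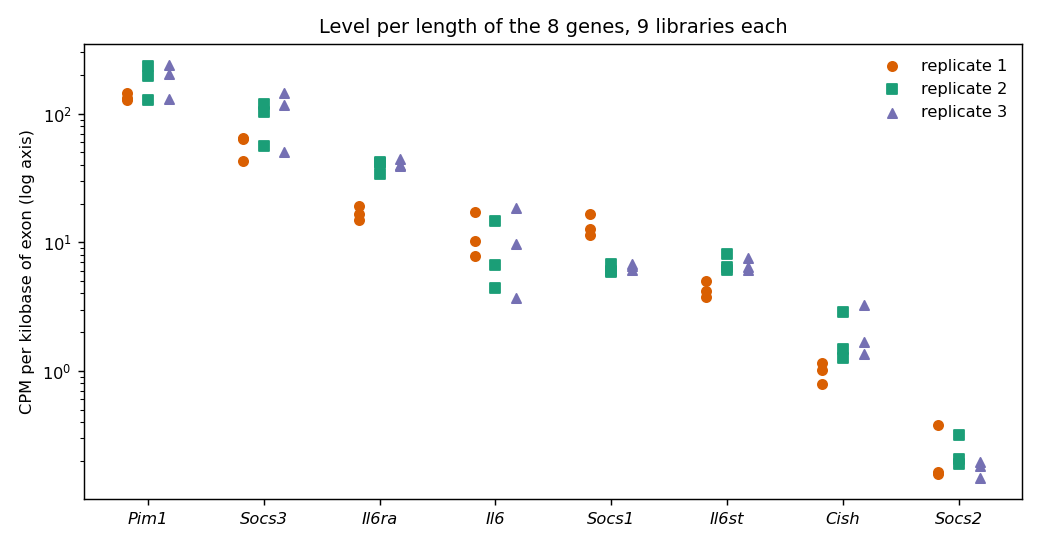
Level per length of the 8 genes (CPM per kilobase of exon, log axis), 9 libraries each, in order of the mean. Pim1, Socs3 and Il6ra form the upper steps, Il6, Socs1 and Il6st overlap, and Socs2 is the lowest.

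Socs3, Cish and Pim1 rose in high against low, and the gel difference of Il6 changed most with the replicate number. The sequence at the transcription start is shown for Socs3, Cish and Il6, whose promoter windows hold a motif match. It is not shown for Pim1, whose windows hold none. It comes from RefSeq promoter windows of the mouse build GRCm38.p6, which is not the build of the count files (GRCm39), and 7 of the 8 members had a window of 250 bases before to 50 bases after the start. The motifs searched, on both strands, were the STAT element TTCNNNGAA, which 8.3% of the 32851 windows hold, and an NF-kB element, GGG and TTTCC with any 2 bases between them, which 1.63% hold. Capitals mark the match. The Socs3 stretch (chr11:117969501-117969530, minus strand) runs from 164 to 135 bases before the start used in the table, a start that lies inside the outer bounds of the RefSeq gene. The Cish stretch (chr9:107296655-107296684, plus strand) spans the start and holds 2 STAT matches that do not overlap, at the first and the 12th transcribed base. The Il6 stretch (chr5:30012994-30013113, plus strand) is the last 120 bases before the start.
Socs3: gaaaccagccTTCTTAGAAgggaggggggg
Cish: agttTTCCTGGAAagTTCTTGGAAatctgt
Il6: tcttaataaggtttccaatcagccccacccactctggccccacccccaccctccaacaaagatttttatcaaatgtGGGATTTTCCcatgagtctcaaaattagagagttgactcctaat
The windows of Il6ra, Il6st, Socs1 and Pim1 hold neither motif. A match describes letters in this window and does not show a bound site.

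Other genes of the pathway changed in part, again in the fit with the block (high against low unless stated). Without the block none of the genes in these lists passed in edgeR, the nearest being Il10 (adjusted p = 0.0534). The counts for each list stand beside 6.72% of all tested genes higher and 8.73% lower, and nothing particular to a list is read from them. None of the JAK kinases or of the gp130 partner receptors passed: Jak1 was at 0.01 ± 0.09, Jak2 at 0.40 ± 0.14 (adjusted p = 0.0836), and Lifr, the receptor chain for leukaemia inhibitory factor, at 0.23 ± 0.18. The median of the 4 JAK genes was 0.31 and that of the 3 tested receptors 0.23, beside 0 over all tested genes. Among the STAT genes, Stat2, a factor of interferon responses, fell (-1.18 ± 0.26, adjusted p = 0.0332). Of 6 tested gp130 family ligands 1 rose, Ebi3 (0.63 ± 0.08, adjusted p = 8.56e-04), a subunit of interleukin-27 and interleukin-35. The sheddases Adam17 (0.12 ± 0.08) and Adam10 (0.04 ± 0.08), which can release the interleukin-6 receptor from the cell surface, did not pass.

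Among the further feedback genes, Socs6 fell (-0.55 ± 0.11, adjusted p = 0.00682), and Socs4, Socs5 and Socs7 did not pass. Pim2, a kinase related to PIM1, rose by 1.12 ± 0.17 (adjusted p = 0.00307) and also in middle against low by 0.99 ± 0.17. Pim3 was at 0.53 ± 0.17 (adjusted p = 0.0755). Unlike Pim1, Pim2 and Pim3 were higher in replicate 1 than in replicates 2 and 3 (0.88 and 0.96, adjusted p = 3.91e-04 and 3.77e-04). Of 11 other brakes on JAK-STAT signalling 2 rose and 0 fell, a share near the 15.5% of all tested genes called. They were the phosphatase genes Ptpn6 (0.44 ± 0.09) and Ptpn1 (0.42 ± 0.08), and the list median was 0.02.

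Cytokines that can induce SOCS genes were mostly too low to test, with 6 of 16 tested. Of these, 2 rose, Csf3 (3.32 ± 0.50, adjusted p = 0.0161), which encodes G-CSF, and Il10 (1.6 ± 0.10, adjusted p = 2.31e-05), and Il15 fell (-0.58 ± 0.09, adjusted p = 0.00176). Of 22 tested receptors that feed JAK-STAT signalling, 2 rose and 3 fell, close to the 6.72% and 8.73% of all tested genes, with a median of -0.03. Csf2rb (0.51 ± 0.11), the shared chain of the GM-CSF receptor, and Il4ra (0.52 ± 0.11) rose, and those that fell included Il7r (-0.61 ± 0.12) and Il2ra (-0.73 ± 0.20), the last named after its values were seen. Csf3r, the G-CSF receptor gene, outside the rule for named genes, was at -0.01 ± 0.12. Of 16 known STAT3 targets, 3 rose and 3 fell, with a median of -0.03. Saa3 (1.82 ± 0.18), an acute phase gene, and Lcn2 (1.32 ± 0.16), a granule protein gene, rose, and Ccnd1 (-1.36 ± 0.22) and Fgl2 (-1.0 ± 0.17) fell. Of 9 known STAT5 targets 0 rose and 1 fell, Gadd45g (-0.55 ± 0.12, adjusted p = 0.0124), with a median of -0.26.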

How the data were processed

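The deposited files hold raw counts per gene, 1 file per library, with the authors' FPKM and exonic gene size in bases, deposited as other columns. The submitters' processing notes name HTSeq 0.6.1, HISAT2 2.0.1, cutadapt 1.9.1, DESeq2 and the build GRCm39, without settings. The deposited FPKM differed from values recomputed from counts and sizes by at most 0.005 and was not used further.

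Genes passing filterByExpr (12094, members 8 of 8) were normalised by TMM and fitted with edgeR 4.0.16 (quasi-likelihood, robust) in R 4.3.3, in 1 model of all 9 libraries, with two-sided contrasts between gels. The primary model has no block. By the labels, libraries of the same replicate number deviated together from their group means (r of 0.595 to 0.856, 9 pairs). The number was therefore fitted as a block in a further model. Pairs of replicates 2 and 3 with unlike numbers agreed about as well (r of 0.552 to 0.698). Pairs of replicate 1 with another number had a negative r. These values set replicate 1 apart from the rest and do not separate replicate 2 from replicate 3. A standard error is the log2 difference over the root of the F statistic. Alternatives were RLE and total-count scaling, no filter, DESeq2 1.42.0, replicates 2 and 3 alone and each library left out. Plots used matplotlib 3.10.9.

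Named genes are the 8 members, up to 4 called genes of each pathway list by smallest adjusted p (or its 2 most abundant) and the 3 genes nearest to a member in root mean square difference of centred log2(CPM + 1), among genes of at least 5 CPM. Members, lists and the replicate 1 contrasts were chosen with earlier results of these data known. Some results that the rule for named genes would give are not reported here.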

Additional observations from a re-analysis of the deposited data

Results flagged for a closer look

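For 3 genes the difference between high and low gels was not the same in replicate 1 as in replicates 2 and 3, by the interaction term of the edgeR fit. It was -2.78 for Il6 (adjusted p = 5.16e-04), -0.76 for Pim1 (adjusted p = 0.00233) and -0.73 for Socs3 (adjusted p = 0.0271) on the log2 scale. For the difference between middle and low gels it was -2.13 for Il6 (adjusted p = 0.00872) and -0.67 for Pim1 (adjusted p = 0.0113). Il6 was lower in the high than in the low gel in replicate 1 and higher in replicates 2 and 3, while Pim1 and Socs3 were higher in the high gel in all 3 replicate numbers. Replicate 1 has 1 library per gel, taken to vary like the others, so the spread in this fit comes from replicates 2 and 3 alone. The terms for high and for middle gels both use low replicate 1 and are not separate results. The neutrophil markers, at 2900 to 3490 CPM in replicate 1 against 12300 to 22300 CPM in replicates 2 and 3, move with this split. Their part in it was not tested.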

How the results depend on the processing

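Genes and members called changed mainly with the replicate number. With the number as a replicate block, 1869 genes passed for high against low, 222 for middle against low, 2 for high against middle and 1089 for any difference among the 3 gels, against 11, 0, 0 and 0 without it. The members called were then 3, 1, 0 and 2, against none. In that fit Il6 and Il6ra for middle against low took the other sign, at 0.07 and -0.01. With replicates 2 and 3 only, 3207, 784, 840 and 2490 genes and 5, 3, 3 and 5 members passed, and with the block as well 3183, 825, 900 and 2535 genes and 5, 3, 2 and 5 members. There Socs1 was at 0.01 for high against low, Il6 at 0.98 and 0.97 and Socs1 at 0.04 for middle against low, and Socs1 at -0.03 and -0.04 for high against middle. DESeq2 called 333, 48, 2 and 197 genes, with 1 member for high against low. Scaling to library totals moved Il6st for high against middle to -0.01. With only the compared gels in the fit, 0 genes passed for high against low. Without the filter on low counts, 1556 and 724 genes, against 1011 and 315 with it, passed the interaction for high and for middle against low, and Socs3 passed that for middle against low (-0.47, adjusted p = 0.038). Leaving out each library in turn, over the fits with and without the block, gave 0 to 2469 genes and 0 to 4 members for high against low, 0 to 661 and 0 to 3 for middle against low, 0 to 301 and 0 to 2 for high against middle, and 0 to 1826 and 0 to 4 for any difference. The members whose sign turned in these fits ranged, for high against low, from -0.10 to 0.48 (Il6ra) and -0.62 to 0.43 (Socs1); for middle against low, from -0.46 to 1.08 (Il6), -0.20 to 0.40 (Il6ra), -0.59 to 0.36 (Socs1) and -0.10 to 0.37 (Cish); and for high against middle, from -0.24 to 0.43 (Il6ra), -0.17 to 0.21 (Il6st), -0.35 to 0.39 (Socs1), -0.14 to 0.24 (Socs2) and -0.04 to 0.48 (Socs3). Without low replicate 1 the fit with the block also called Il6 for high against low (1.92, adjusted p = 4.36e-05). That was 1 of the 9 fits with the block that left out a library. Socs3, Cish and Pim1 kept their sign for high against low in every fit run. Il6, Il6st and Socs2 also kept theirs for high against low with each library left out. Where a value turned, the cause was not tested. Socs2 and Cish rest on few counts, which limits their precision.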

Other observations

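The ratio of Il6ra to Il6st, both per kilobase, was 3.93, 6.83 and 6.85 in high replicates 1 to 3 and 3.79, 4.25 and 5.20 in low replicates 1 to 3. The high gel was above the low gel in 3 of 3 replicate numbers, but the groups overlapped (log2 difference 0.38, two-sided exact permutation p = 0.3, where 3 libraries against 3 cannot go below 0.1). The ratio of Socs3 to Socs1 per kilobase was 5.15, 20.4 and 21.7 in high gels and 2.61, 9.31 and 7.76 in low gels (log2 difference 1.2, exact permutation p = 0.3). It too was higher in the high gel in 3 of 3 replicate numbers, with groups that overlapped, and the permutation test does not use the replicate number. High and low were compared for 2 ratios chosen after the values were seen.

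Some genes followed a member closely over the 9 libraries, by the root mean square difference of their centred log2 values. Nearest to Socs3 were Fam110a (0.15), Plscr1 (0.16) and Siglece (0.17), where Socs3 itself spanned 1.74. Nearest to Pim1 were Btg2 (0.07), Nlrx1 (0.10) and Il4ra (0.10), and Pim1 and Socs3 were 0.26 apart. Nearest to Cish were Chrm3 (0.14), Samsn1 (0.17) and Stard7 (0.17). Nearest to Il6 were Coq10b (0.31), Ets2 (0.34) and Slc16a1 (0.34), so no candidate among 9197 matched Il6, which spanned 2.09, as closely as those genes match the other members. Nearest to Il6ra were Niban1 (0.07), Kat2b (0.07) and Tnrc18 (0.08), to Il6st Lrp1 (0.06), Tlr13 (0.07) and Sh3pxd2b (0.07), and to Socs1 Hsp90aa1 (0.11), Atg14 (0.11) and Klf10 (0.12). The distances include the shared difference between replicate 1 and the other libraries.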
